A study of Mus musculus and Homo sapiens with 10 samples.

Results

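Notch signalling was examined here through 8 of its genes: the receptors NOTCH1, NOTCH2 and NOTCH3, the ligands JAG1, JAG2 and DLL1, and the transcriptional targets HES1 and HEY1. They were taken by name, and each was given a window of the gene body plus 10 kb on either side in the human build hg19 and, for its orthologue, in the mouse build mm9. Regions of the 8 deposited lists that met these 16 windows were collected, which gave 5 regions of 4818 in all. Apart from the windows of NOTCH1, JAG1 and HES1 in hg19, gene positions were set by hand from general knowledge of the builds, so distances are best read to about 1 kb. Human symbols are in capitals and mouse symbols are not.

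The series holds chromatin immunoprecipitation and sequencing (ChIP-seq) of 10 libraries, 7 from the mouse line MMTV-Myc and 3 from the human line MDA-MB-231-Luc. MMTV-Myc is the name of a mouse mammary tumour model in which the MMTV promoter drives a Myc transgene, and MDA-MB-231 is a widely used line from a human breast cancer. In each line, cells carrying a pLKO.1 lentiviral hairpin (shCbx8 in mouse, shCBX8 in human) were compared with cells carrying shScr, whose genotype is labelled wild type. Cells were selected with puromycin at 2 µg/ml for at least 4 days, and chromatin was cut with micrococcal nuclease. H3K4me3, H3K27me3 and H3K27ac were measured in MMTV-Myc cells and H3K4me3 alone in MDA-MB-231-Luc cells. Each line also has an shScr input library. Every combination of line, hairpin and antibody has 1 library, so no difference below has a replicate check and no test between conditions was possible. The labels do not say which of the Cbx8 hairpins a library carried, and the lists hold no value from which the knockdown itself, or the identity of either line, could be checked.

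The deposited lists give only where the mark was, by the authors' calls, lower or higher in the knockdown library than in shScr. They hold no fold, score or read count, so the size of each change and the depth behind it are unknown. The names of the lists give the thresholds, which in the mouse were a 1.8-fold change with a q-value of 1e-08. For the human line they name a q-value of 0.002 and no fold. A gene missing from a list is therefore not shown to be unchanged.

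Notch receptors are cut after they bind a Jagged or Delta-like ligand on a neighbouring cell. The freed intracellular part enters the nucleus, joins the DNA-binding protein RBPJ and a Mastermind-like co-activator, and switches on genes such as HES1 and HEY1, which encode transcriptional repressors. In the mammary gland the pathway is known for its part in luminal cell fate and in breast tumours. H3K4me3 marks the starts of active genes, most of all those rich in CpG dinucleotides. H3K27ac is found at enhancers and promoters in use, and H3K27me3 goes with Polycomb repression. Cbx8 is a chromodomain subunit of Polycomb repressive complexes, and Wdr5, which is named beside it in the title of the study, belongs to the enzyme complexes that methylate H3K4. The comparison made here is which Notch genes were listed for each mark and line.

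In MMTV-Myc cells, the receptor gene Notch1, the ligand gene Jag2 and the target gene Hey1 each carried 1 H3K4me3 region listed as lower after Cbx8 knockdown. In MDA-MB-231-Luc cells, the receptor gene NOTCH3 and the ligand gene JAG1 each carried 1 lower H3K4me3 region. All 5 regions lay over the start of their gene as placed here. If a start were off by 1 kb to either side, this would be sure of JAG1 alone, and the other 4 regions would still lie within 1 kb of it. No region of the other 6 lists, which are higher H3K4me3 in either line and H3K27ac and H3K27me3 in both directions in the mouse, met any of the 8 genes. The 5 genes were different in the 2 lines, so that 0 of the 8 were listed in both, while NOTCH2, DLL1 and HES1 were listed in neither. The share of all genes listed in both lines was not taken, and the lists were called at different thresholds. That 0 therefore does not show a difference between the lines.

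The upstream sequences of Notch1 and Jag2 are shown for the base composition before the start of 2 of these genes. Each is given for the 250 bases before the start of a RefSeq transcript, 5′ to 3′ on the strand of the gene, in the mouse build GRCm38.p6. That build is not the mm9 of the lists, so the positions of these sequences must not be read against the region positions. Capitals mark CpG dinucleotides. Notch1 lies at chr2:26503823-26504072 and Jag2 at chr12:112929496-112929745 of GRCm38.p6, both on the minus strand.
Notch1: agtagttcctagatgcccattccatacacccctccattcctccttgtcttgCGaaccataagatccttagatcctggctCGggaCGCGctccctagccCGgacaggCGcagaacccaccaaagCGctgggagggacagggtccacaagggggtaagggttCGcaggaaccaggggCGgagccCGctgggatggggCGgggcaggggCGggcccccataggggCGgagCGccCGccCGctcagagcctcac
Jag2: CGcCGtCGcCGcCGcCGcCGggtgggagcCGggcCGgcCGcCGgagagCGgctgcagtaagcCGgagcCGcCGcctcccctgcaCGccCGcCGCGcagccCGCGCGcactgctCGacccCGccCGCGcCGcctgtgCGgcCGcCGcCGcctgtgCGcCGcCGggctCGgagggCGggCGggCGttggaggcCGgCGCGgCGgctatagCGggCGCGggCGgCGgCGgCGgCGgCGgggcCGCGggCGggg

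The Notch1 sequence holds 16 CpG dinucleotides and is 66% G or C. That of Jag2 holds 54 and is 87.2% G or C. The median of all 32851 upstream sequences in the RefSeq table was 6 CpG dinucleotides and 52.4% G or C, and 5 of them, Jag2 included, held 54 or more. A high CpG content was not particular to the genes with a lower region. Among members with no region in the mouse lists, Notch2 held 34, Notch3 17, Jag1 20, and the 2 starts of Dll1 held 21 and 13. The table matched 6 of the 8 mouse genes, and Hes1 and Hey1 were not among them.

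Motifs of the pathway's own factors were searched in the same 250 bases on both strands. The RBPJ motif, GTGGGAA, was in neither of the 2 printed sequences, nor upstream of Notch2, Notch3, Jag1 or Dll1. It occurs in 5.42% of all upstream sequences in the table. The N-box, CACNAG, which HES repressors bind, occurred 1 time upstream of Notch1 and 0 times upstream of Jag2, and 36.7% of all upstream sequences hold it. It also occurred 1 time upstream of Notch2 and 2 times upstream of Notch3, which have no region in the mouse lists. The E-box, CANNTG, was upstream of neither, against 66.2% of all sequences. Among members with no region it occurred 1 time upstream of Jag1 and 1 and 3 times upstream of the 2 starts of Dll1. An N-box and an E-box can overlap, and these are matches of letters within this window only.

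How often any stretch of genome of this size meets a list was taken as the background. Each chromosome was divided into consecutive tiles as long as the median window of the 8 genes, 48.7 kb in the mouse and 52.5 kb in the human. The tiles run through stretches with few genes, where H3K4me3 is scarce, so they are not matched to genes and a higher share at genes is no result about Notch. With lower H3K4me3 in MMTV-Myc cells, 3 of 8 genes met a region, beside 1.38% of tiles. With higher H3K4me3 in these cells it was 0 of 8, beside 0.0315% of tiles. For H3K27ac it was 0 of 8 in both directions, beside 0.336% of tiles for lower and 0.0335% for higher regions. For H3K27me3 it was also 0 of 8, beside 0.132% of tiles for lower and 0.00394% for higher regions. With lower H3K4me3 in MDA-MB-231-Luc cells, 2 of 8 genes met a region, beside 2.24% of tiles. With higher H3K4me3 in these cells it was 0 of 8, beside 4.45% of tiles, from a list of 2611 regions against 1241 lower ones. At a share this low, 0 of 8 windows does not show that these genes were spared.

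**Figure D1:**
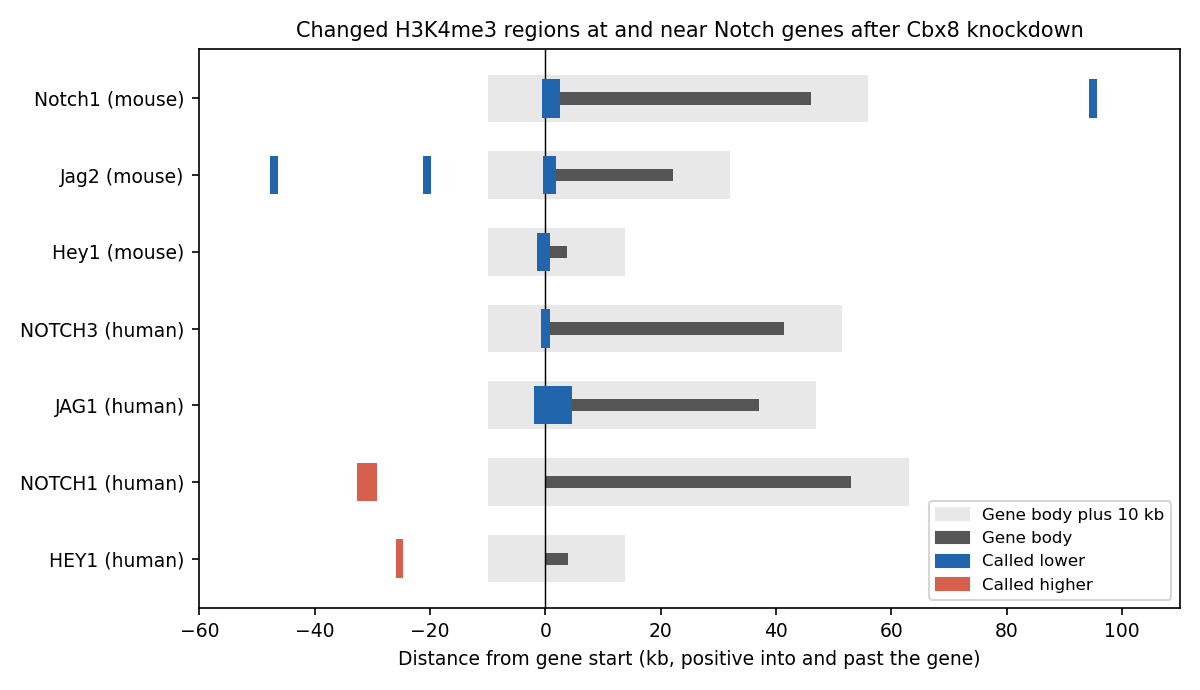
Changed H3K4me3 regions at and near the Notch genes that have a listed region within 50 kb of the gene body. The x axis is the distance from the gene start in kb, positive into and past the gene, grey boxes are the gene body plus 10 kb, dark bars the gene body, and each blue or red block is 1 region listed as lower or higher. The 5 regions inside a window all lie over the start and are all lower, while the 2 higher regions, near human NOTCH1 and HEY1, lie upstream of the window.

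Among the receptors, mouse Notch1 carried a lower H3K4me3 region of 3050 bp on chromosome 2 (mm9, 26356801 to 26359850). Its window ran from 26303400 to 26369400. The region reached about 0.55 kb upstream of the start and 2.5 kb into the gene, which is about 46 kb long. Of the 701 lower mouse regions, 86.9% were shorter, and the list median was 1850 bp. It was therefore the longest of the 3 mouse member regions. A second lower region, of 1350 bp (26263651 to 26265000), lay outside the window, 48.4 kb past the 3′ end of Notch1. In GRCm38.p6 the protein-coding genes next to Notch1 on that side are Sec16a, Inpp5e and Pmpca. Within 500 kb of the Notch1 start there were 3 lower regions, the one at the start included, and 0 higher regions. The higher mouse list holds 18 regions in all and none on chromosome 2, so that 0 says nothing about direction here.

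Human NOTCH1 differed from the mouse gene in what was listed around it. No region met its window on chromosome 9 (hg19, 139378000 to 139451000). The nearest was a higher H3K4me3 region of 3400 bp at 139469551 to 139472950, about 29.3 kb upstream of the start. That length is above the 1750 bp median of the higher list. The nearest lower region (139579951 to 139582350) was 139 kb from the gene body. The mouse and human lists were called at different thresholds, and whether the lines differ at this gene was not tested.

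NOTCH3, the receptor best known from vascular smooth muscle and also expressed in breast tumours, carried the shortest of the 5 regions. The lower region of 1600 bp lay on chromosome 19 (hg19, 15310951 to 15312550), within a window from 15260400 to 15321800. It reached about 0.75 kb upstream and 0.85 kb into a gene of about 41.4 kb. Only 11 of the 1241 lower human regions were shorter, which is 0.886% of the list, whose shortest region is 1000 bp and whose median is 4400 bp. The next lower region on the chromosome was 951 kb away (14315451 to 14319450), and the nearest higher region 355 kb away (15666501 to 15667550). In the mouse, Notch3 was in no list, and the nearest lower H3K4me3 region on chromosome 17 was 734 kb from the gene body.

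NOTCH2 stood far from every list. The closest changed region in the human line was a higher one on chromosome 1, 647 kb upstream (121259851 to 121261850), and the closest lower one was 868 kb upstream (121480751 to 121485450). For mouse Notch2 on chromosome 3, the closest region of any list was a lower H3K4me3 region 1.6 Mb upstream (96212801 to 96214400). A lower H3K27ac region followed at 2.07 Mb.

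Of the ligands, JAG1 carried the longest of the 5 regions. It was a lower H3K4me3 region of 6650 bp on chromosome 20 (hg19, 10650001 to 10656650), in a window from 10608000 to 10665000. The region reached about 1.9 kb upstream of the start and 4.7 kb into the gene. It was 1.51 times the median of the lower human list, and 81.6% of that list was shorter. No other lower region lay within 4.63 Mb of the gene body, and the nearest higher region was 330 kb away on the 3′ side (10286551 to 10288050). The JAG1 call was thus not one of a run of lower regions. Mouse Jag1, on chromosome 2, was in no list, with its nearest lower H3K4me3 region, of 700 bp, 549 kb from the gene body.

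Jag2 showed the opposite setting in MMTV-Myc cells. Its lower region of 2250 bp on chromosome 12 (mm9, 114166201 to 114168450) lay in a window from 114136000 to 114178100. It reached about 0.45 kb upstream of the start and 1.8 kb into the gene, and 67.9% of the lower mouse list was shorter. A pair of further lower H3K4me3 regions lay upstream, at 114187851 to 114189200 and at 114214301 to 114215750, about 19.9 and 46.3 kb from the start. The genes that follow Jag2 on that side in GRCm38.p6 are Nudt14, Brf1 and Btbd6. Within 500 kb of the Jag2 start there were 7 lower regions, the most around any of the 8 mouse genes, and 0 higher ones. The higher mouse list holds 18 regions in all and none on chromosome 12, so that 0 was fixed in advance. Lower H3K4me3 was thus listed at several neighbouring places of this stretch, and the Jag2 start was 1 of them. Lower regions around the starts of genes other than the members were not counted, so whether 7 is unusual was not tested.

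Human JAG2, on chromosome 14, had no region in its window, but changed regions of both directions lay 3′ of it. A lower region (105498601 to 105502600) was 105 kb from the gene body and a higher one of 10650 bp (105484201 to 105494850) was 112 kb away. Within 500 kb of the start, 2 lower and 3 higher regions were listed. DLL1, a Delta-like ligand, was the ligand farthest from a changed region. The nearest in the human line was a higher region on chromosome 6, 978 kb from the gene body (169612551 to 169613400), and in the mouse the nearest lower H3K4me3 region on chromosome 17 was 6.51 Mb away (8993651 to 8995800).

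Of the targets, Hey1 carried a lower H3K4me3 region of 2100 bp on chromosome 3 in MMTV-Myc cells (mm9, 8666251 to 8668350). Its window ran from 8653300 to 8677100. The region reached about 1.4 kb upstream of the start and 0.75 kb into the gene, which is about 3.8 kb long. How the region divides between the gene and its upstream side is within the error of the placed start. Of the lower mouse list, 61.8% was shorter. No other lower H3K4me3 region of chromosome 3 lay within 49 Mb, which makes Hey1 the most isolated of the 3 mouse genes. Hey1 was also the member nearest to a changed H3K27me3 region, which was a lower one 505 kb upstream (9172401 to 9174400) and thus outside the gene's window and flank.

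Human HEY1, on chromosome 8, had no lower region within 716 kb. A higher region of 1100 bp (80704851 to 80705950) lay 24.8 kb upstream of its start, and 2 higher regions in all lay within 500 kb. HES1, the target most often used as a readout of Notch activity, was in no list in either line. In the human line the nearest region was a higher one of 1150 bp on chromosome 3, about 64.3 kb upstream of the start (193788451 to 193789600), and the nearest lower one was 534 kb away on the other side. Around mouse Hes1 on chromosome 16 the nearest lower H3K4me3 region was 1.13 Mb away (28928401 to 28931150).

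**Figure D2:**
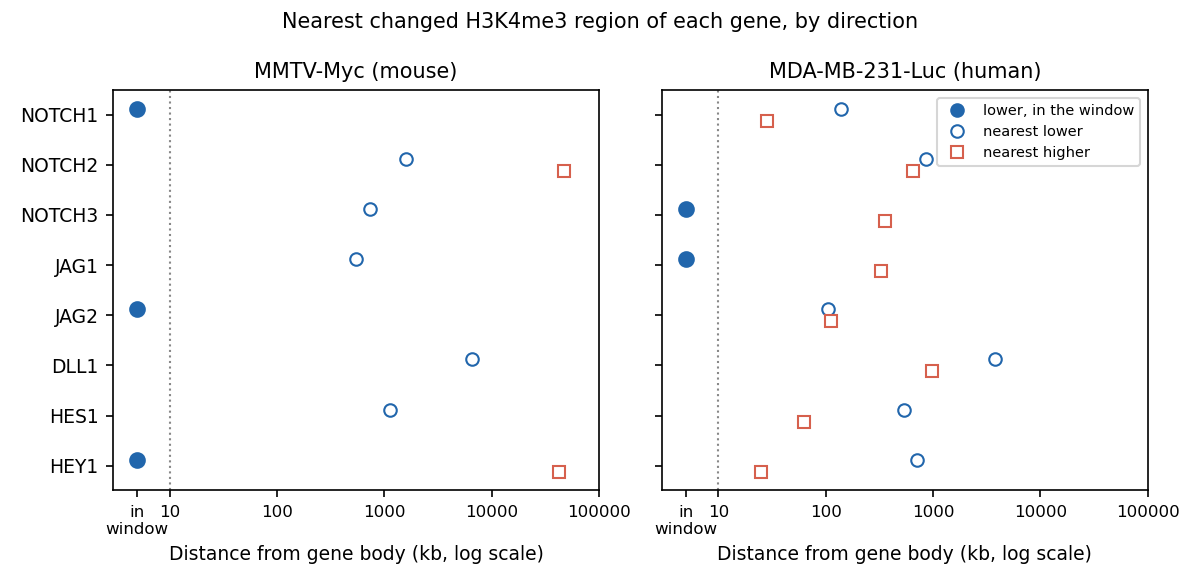
Distance in kb, on a log axis, from each Notch gene body to the nearest H3K4me3 region listed as lower (circles) or higher (squares). A region inside the window (gene body plus 10 kb, dotted line) is a filled point at the left edge. Notch1, Jag2 and Hey1 have a filled point in the mouse panel and NOTCH3 and JAG1 in the human panel, and a missing square means that the chromosome has no higher region.

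The other marks gave no region at these genes in MMTV-Myc cells. For H3K27ac, the nearest lower region to Notch1 was 1.15 Mb away, that to Hey1 3.75 Mb and that to Jag2 4.72 Mb. For H3K27me3 the nearest lower region was 0.505 Mb from Hey1, 3.35 Mb from Jag2 and 19.8 Mb from Notch1. The lists for these marks hold 166 and 63 lower regions, against 701 for H3K4me3. The starts of Notch1, Jag2 and Hey1 were thus listed for H3K4me3 alone, and whether their other marks changed below the authors' thresholds was not tested.

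**Figure D3:**
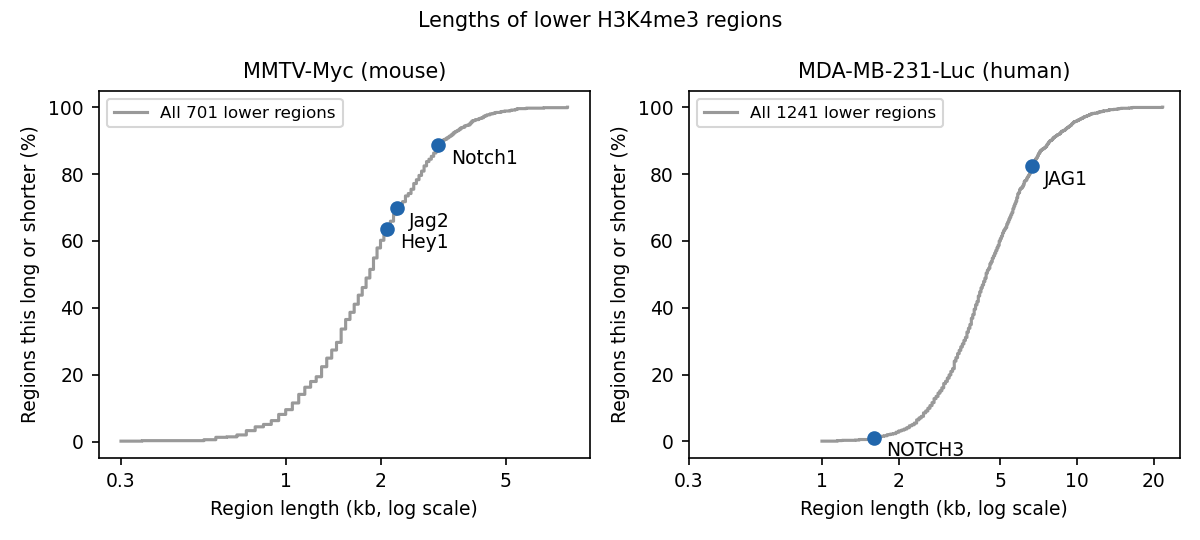
Cumulative share, in percent, of all lower H3K4me3 regions by length (kb, log axis), for the mouse and the human line, with the 5 regions over Notch gene starts as points. The mouse regions lie above the middle of their list, JAG1 at 6.65 kb is in the upper part of the human list and NOTCH3 at 1.6 kb is near its lower end.

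The length of the regions thus set NOTCH3 apart from the other 4 as a description. The regions at Notch1, Jag2, Hey1 and JAG1 were 1.65, 1.22, 1.14 and 1.51 times the median of their own list, and the region at NOTCH3 was 0.364 times its list's median. Lengths are those of the called regions and say nothing of how strongly the mark changed within them.

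In the human line, 42 further genes of the pathway were given windows by the same rule. Of these, 7 met a lower and 4 a higher H3K4me3 region, 2 of them both, and 33 met none. The shares were 16.7% lower and 9.52% higher, set beside 2 and 0 of the 8 members. These windows ranged from 21.3 to 458 kb with a median of 45.8 kb, so the tile shares given above are no background for them. No share over all human genes was available, so neither count is a result about the pathway. Of the 4 genes with a higher region, MAML3, MAML2 and FBXW7 have the longest windows of the 42, at 458, 385 and 234 kb. The lower regions lay over the gene start, as placed here, in 6 of the 7 genes, and the higher regions over the outermost start in 0 of 4. Other starts of these genes were not placed, so whether a higher region covers one of them was not tested. The 2 lists differ in region length, with medians of 4400 bp for lower and 1750 bp for higher regions. The share of each whole list over gene starts was not taken, so whether this contrast is particular to the pathway was not tested.

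Lower regions over the placed start were found in 2 of the 3 Mastermind-like co-activator genes. MAML2 carried one of 6200 bp on chromosome 11 (96070751 to 96076950) and MAML3 one of 5400 bp on chromosome 4 (141070851 to 141076250). Both genes also held 2 shorter higher regions within the gene, between about 35 and 97.8 kb past the start. ADAM10, the metalloprotease that makes the first cut in a ligand-bound receptor, carried a lower region of 4850 bp over its start on chromosome 15 (59038351 to 59043200). PSENEN, a γ-secretase subunit, had one of 6250 bp on chromosome 19 (36235201 to 36241450) that extends past both ends of the gene. ITCH, a ubiquitin ligase, had one of 2500 bp on chromosome 20 (32950651 to 32953150). The regions at MAML2, MAML3, ADAM10 and ITCH reached only about 0.55, 0.95, 1 and 0.35 kb upstream of the placed start. Placed starts are good to about 1 kb, so it is not certain that these regions cover the true starts. The HES family gene HES7 lay wholly inside a lower region of 10300 bp on chromosome 17 (8020551 to 8030850). The lower region in the window of SNW1 lay past the 3′ end of that gene, by 7.55 kb.

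Apart from those in MAML2 and MAML3, higher regions were found within FBXW7 and LFNG. FBXW7, whose product marks the Notch intracellular part for destruction, held 1 on chromosome 4 (153270001 to 153274350). LFNG, a sugar transferase that acts on Notch receptors, held 1 of 5000 bp on chromosome 7 (2558801 to 2563800). It lay 6.7 kb past the outermost start of LFNG, a gene with more than 1 start. The ligand genes DLL3 and DLL4 and the receptor gene NOTCH4 met no region.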

How the data were processed

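Mononucleosome DNA was sequenced from a single end, 100 bp per read, per the labels' protocols. The submitters' processing notes name the tools SICER, MACS2 2.1.0, Bowtie 1.0.0 and FastQC 0.10.0 and the builds mm9 and hg19. Neither the tool that called the changed regions nor the handling of input and depth is given in these sources. The deposited lists hold 3 columns (chromosome, start, end). All starts lie on a grid of 50 bp and ends 1 bp below it, so starts were read as counted from 0 with the end included. Positions are printed counted from 1.

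No annotation of mm9 or hg19 was used here. The windows of NOTCH1, JAG1 and HES1 in hg19 came from the definition of the gene set. The other windows, and all gene starts, were set by hand from general knowledge of the hg19 and mm9 gene models, to about 100 bp, and not checked against an annotation. Distances are best read to about 1 kb. The mouse gene bodies differed by at most 230 bp in length from those of RefSeq's GRCm38.p6 table, which was also used for the order of neighbouring genes. A match in length does not check where a gene body or start lies in mm9. Mouse windows were not set for the 42 further genes. A region counted for a gene where at least 1 bp met its window. Upstream sequences came from RefSeq, GRCm38.p6. Every member was described; of the 42, those meeting a region were named, and 1 more gene of the pathway is not reported here. The members, the gene lists and the windows were chosen with earlier results of these data known. Overlap code was tested on simulated data. Python 3.11.15 and matplotlib 3.10.9 were used.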

Additional observations from a re-analysis of the deposited data

How the results depend on the processing

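Of 64 alternative values over 16 counts, 62 stayed within 1.5 times the reported count, but 47 of these are counts of 0 that stayed 0. With a flank of 50 kb in place of 10 kb, higher H3K4me3 in MDA-MB-231-Luc cells met 2 of the 8 genes in place of 0, which are NOTCH1 and HEY1. With only the regions that reach the median length of their list, lower H3K4me3 in that line met 1 gene, JAG1, in place of 2, because the region at NOTCH3 is short. The 3 mouse genes with lower H3K4me3 stayed 3 with no flank, with flanks of 5 and 50 kb, with at least 50% of a region inside the window, with the longer regions only, and with all windows moved 5 kb to either side. All 3 regions lie over the placed gene start and are longer than their list's median, so none of these settings could drop them. The unchanged count shows only that no further mouse gene was gained. The moved windows were an alternative chosen after seeing the data. Merging regions closer than 5000 bp left 3 mouse and 2 human regions. No stricter threshold of the authors' calls could be tried, since the lists give no score. No paired analysis was possible because each condition has 1 library. Depth is unknown, so a gene in no list may have changed by less than the authors' thresholds.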
